A study of Mus musculus with 9 samples.

Results

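The genes described here are 7 members of the Six-Eya-Dach network: Six4, Six5, Eya1, Eya2, Eya3, Eya4 and Dach1. They were taken by gene symbol from the authors' deposited RNA table, which has 22942 rows, and all 7 were found. No measured value was used to choose them, although earlier results of these data were known when the genes were picked. Six-family proteins are homeodomain transcription factors that bind DNA. Eya proteins do not bind DNA themselves. They are recruited by Six-family proteins as coactivators, and they also carry a protein phosphatase domain. Dach proteins belong to the Ski and Sno family and mostly act as corepressors on the same targets. The network was first described in eye development and is known for its roles in muscle, kidney and inner ear. In blood, Eya1 is known as a gene that MLL fusion proteins activate.

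The cells were bone marrow mononuclear cells from mice of strain B6.SJL (CD45.1). MLL-AF9 cells carried the retrovirus MSCVneo-MLL-AF9 together with the empty virus MSCVpuro, and control cells carried both empty viruses, MSCVneo and MSCVpuro. Both arms were thus infected with a neo and a puro vector, and MLL-AF9, a leukemia fusion that joins the histone methyltransferase MLL to AF9, was expressed from a retrovirus and not from the Mll1 locus. Each group had 3 polyA RNA libraries. The labels state neither the age of the animals nor the time after infection, nor whether the libraries came from separate animals. The table gives 1 pooled FPKM value (fragments scaled to transcript length and to library size) per gene and group, with a p-value and a q-value from the authors' own comparison. The spread between libraries and the depth are therefore unknown, and no value below has an error of its own.

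The deposited 5hmC regions of the series are in build mm9, of which no gene positions were at hand, and they were not used. The promoters of RefSeq in build GRCm38.p6 give a view of the sequence at the starts of these genes. A window of 250 bases before to 50 bases after the start was found for 5 of the 7 genes, with 2 alternative starts each for Six4 and Eya4. No window was found for Eya1 or Eya2, so the motif and CpG counts below do not cover them. The 2 windows printed here show the member that went from almost no RNA to a clear level, Six4, and a member that did not pass the test, Eya3. Of the 2 Six4 windows, the one printed was chosen because it holds the MEF3 motif, which is explained next. Capitals mark MEF3, the binding site of Six-family proteins known from muscle genes (TCAGGTT, or AACCTGA on the other strand), and GC boxes (GGGCGG or CCGCCC), bound by Sp1-type factors. Both are 5′ to 3′ on the strand of the gene. The Six4 window is chr12:73113196-73113495, minus strand, and the Eya3 window is chr4:132638796-132639095, plus strand.
Six4: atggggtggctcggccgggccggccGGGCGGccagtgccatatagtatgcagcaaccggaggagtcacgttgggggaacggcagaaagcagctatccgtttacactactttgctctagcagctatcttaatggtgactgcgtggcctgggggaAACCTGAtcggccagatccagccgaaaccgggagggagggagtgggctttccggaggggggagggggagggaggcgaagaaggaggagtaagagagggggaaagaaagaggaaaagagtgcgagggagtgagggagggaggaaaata
Eya3: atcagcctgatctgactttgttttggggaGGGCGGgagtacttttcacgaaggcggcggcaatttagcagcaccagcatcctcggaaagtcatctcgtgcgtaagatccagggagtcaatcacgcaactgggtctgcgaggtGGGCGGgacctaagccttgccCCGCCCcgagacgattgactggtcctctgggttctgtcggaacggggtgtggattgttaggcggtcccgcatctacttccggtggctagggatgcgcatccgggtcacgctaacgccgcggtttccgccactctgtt
The MEF3 letters in the Six4 window occupied bases 154 to 160, counted from 1 at the window's 5′ end, and were read as AACCTGA on the printed strand. MEF3 was found in 4.07% of the 32851 windows of the RefSeq table, and it was in no other window of the 5 genes, including the second window of Six4. GC boxes were found in 35.7% of all windows. The Eya3 and Six5 windows each had 3 of them, each window of Six4 and Eya4 had 1, and the Dach1 window had 0. The core TGACAG, bound by Meis-type homeodomain proteins and present on either strand in 19.2% of all windows, was in those of Six5 and Dach1. The letters TGATTTA, part of the site of Hox and Pbx dimers, were in 2.97% of all windows and in 0 of the 7 windows of these genes. CpG dinucleotides numbered between 13, for Dach1, and 36, for 1 Eya4 start, against a median of 7 over all windows. A match of letters is a description and does not show that a factor binds there.

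Of the 7 genes, Eya1 and Six4 rose in MLL-AF9 cells, Eya2 fell, and Six5, Eya3, Eya4 and Dach1 did not pass the authors' test. A gene is called here when the authors' deposited table gives it a q-value below 0.05. The table holds 13502 rows with a q-value under 1, and 10.7% of these were called, 5.13% as higher and 5.54% as lower in MLL-AF9 cells. Of the 7 genes 6 were among these rows. Eya4 was not, and has a q-value of 1. A minimum mean of 1 FPKM over the groups was passed by 4 of the 7. Eya3 and Dach1 passed it in each group, whereas Six4 and Eya1 passed it through their MLL-AF9 values, so the called share among the genes above this minimum is no support for a change. Differences are given as ratios of FPKM and as changes of log2(FPKM + 1), MLL-AF9 minus control, a scale that understates the change of low genes. On this scale the median of the 11538 rows averaging at least 1 FPKM was 0.29, and these are called expressed rows below. Of the expressed rows 68.7% had the higher value in MLL-AF9 cells.

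**Figure D1:**
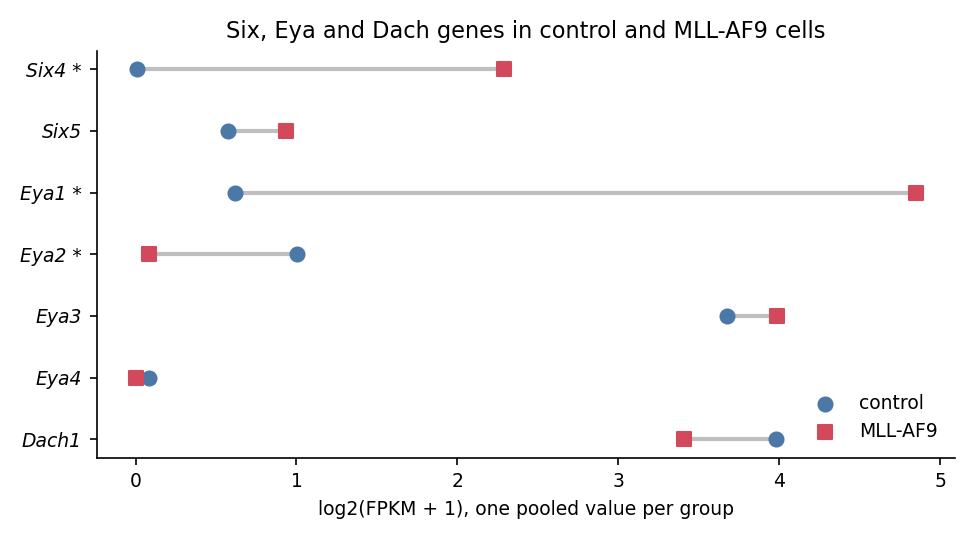
Levels of the 7 genes as log2(FPKM + 1) in control (circles) and MLL-AF9 (squares) cells, 1 pooled value per group without error bars. An asterisk marks genes that the authors' deposited table gives a q-value below 0.05. Eya1 and Six4 moved to the right in MLL-AF9 cells and Eya2 to the left, while Eya3 and Dach1 stayed above 3 on this scale in both groups.

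Among the DNA-binding members, Six4 was listed at 3.89 FPKM in MLL-AF9 and at 0.00475 FPKM in control cells. Six4 binds and activates promoters of muscle genes. It rose by 2.28 on the log2(FPKM + 1) scale, and the authors' deposited table gives it q = 1.76e-08. The ratio of the FPKM values was 819, but the control value is close to 0 and its error is unknown, so the size of the ratio has little meaning. With a pseudocount of 0.1 in place of 1 the log2 change was 5.25. Six4 had the 182nd largest rise among the 13502 rows on the first scale and the 80th largest on the second. Its control level was at or above that of 6378 rows, most of them listed at 0, and 52 of these rows reached the MLL-AF9 level of Six4. The gene was thus among a small group that was near 0 in control and measurable in MLL-AF9 cells, although 3.89 FPKM exceeded only 58.5% of all rows in the MLL-AF9 column.

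Six5, whose gene lies beside the myotonic dystrophy kinase gene Dmpk, was low in both groups, at 0.912 FPKM with MLL-AF9 and 0.491 FPKM in controls. The ratio was 1.86. Six5 did not pass, and the authors' deposited table gives it q = 0.679. In MLL-AF9 cells Six4 was 4.27 times the level of Six5 in FPKM, which is per length. In control cells Six5 had the higher listed value of the pair, and no ratio is given there because the Six4 value is close to 0 and neither error is known. Of the pair, Six4 alone was called. Whether the change of Six4 differed from that of Six5 was not tested, since the table has no values per library.

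Among the coactivators, Eya1 was listed at 27.8 FPKM with MLL-AF9 and 0.534 FPKM in controls. This was a 52.0-fold difference, or 4.23 on the log2(FPKM + 1) scale, and the authors' deposited table gives it q = 1.25e-12. Eya1 is the family member whose loss causes branchio-oto-renal syndrome in people. It had the 62nd largest rise among the 13502 rows, and the 75th largest with a pseudocount of 0.1. Its control level exceeded 47.5% of all rows and its MLL-AF9 level 83.6%. As low a control value was found in 10888 rows, and 42 of them, Eya1 included, were as high as Eya1 in MLL-AF9 cells.

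Eya2 moved in the other direction. It was listed at 1.004 FPKM in control and 0.0589 FPKM in MLL-AF9 cells, 17.1-fold lower, and the authors' deposited table gives it q = 0.00823. On the log2(FPKM + 1) scale the change was -0.92, and with a pseudocount of 0.1 it was -2.80. Its mean stayed under 1 FPKM, so it is counted only where no minimum level is set. Eya2 is also a coactivator with a phosphatase domain, and its level in control cells exceeded 50.9% of all rows.

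Eya3, the member with the highest Eya level in control cells, was at 14.9 FPKM with MLL-AF9 and 11.8 FPKM in controls. It did not pass, and the authors' deposited table gives it q = 0.752. Its log2 change of 0.32 lay close to the median of all expressed rows, and was 0.02 after that median was taken off. Eya4 was listed at 0 in MLL-AF9 and at 0.0589 FPKM in control cells. Its p-value was 0.0445 in the authors' deposited table and its q-value 1. No fold is given against a value of 0, and 397 rows of the table share this state of a p-value under 0.05 with a q-value of 1.

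The make-up of Eya expression differed between the groups. Since FPKM is per length, the levels of the 4 Eya genes can be summed. The sum was 42.7 FPKM with MLL-AF9 and 13.4 FPKM in controls, 3.20 times as high. Without Eya1 the sums were 14.9 and 12.8 FPKM, a ratio of 1.17. Eya3 made up 88.0% of the control sum and 34.8% of the MLL-AF9 sum. Eya1 made up 4.002% of the control sum and 65.1% of the MLL-AF9 sum. Eya2 went from 7.52% to 0.138%. In control cells Eya3 was 22.0 times the level of Eya1, and in MLL-AF9 cells Eya1 was 1.87 times the level of Eya3. These shares are descriptions of pooled values and have no test.

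**Figure D2:**
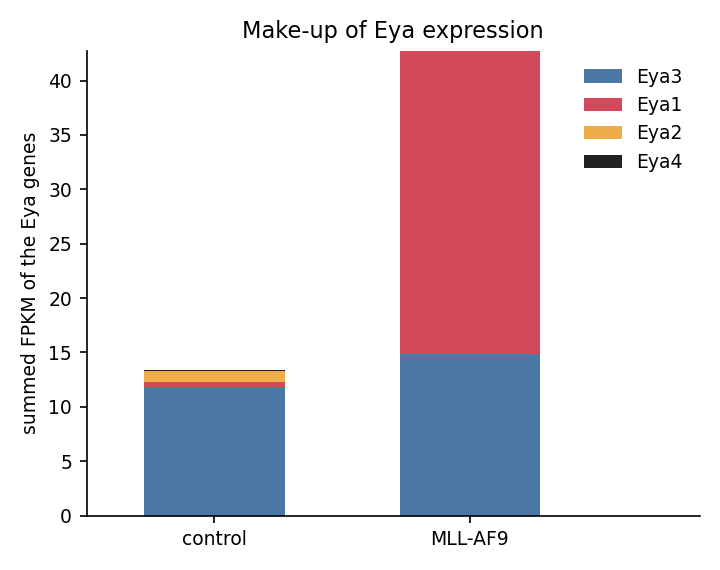
Summed FPKM of Eya1, Eya2, Eya3 and Eya4 in control and MLL-AF9 cells, stacked by gene, 1 pooled value per gene and group. Eya3 made up 88.0% of the control bar, and Eya1 made up 65.1% of the MLL-AF9 bar, where the Eya3 part was 14.9 FPKM high against 11.8 FPKM in the control bar.

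The corepressor Dach1 was listed at 9.61 FPKM with MLL-AF9 and 14.8 FPKM in controls. The change of -0.57 on the log2(FPKM + 1) scale did not pass, and the authors' deposited table gives it q = 0.406. After the median of expressed rows was taken off it was -0.87. In control cells Dach1 had the highest level of the 7 genes, and it exceeded 77.3% of all rows. In MLL-AF9 cells it came after Eya1 and Eya3. The ratio of Dach1 to the summed Eya level was 1.11 in control and 0.225 in MLL-AF9 cells. In order of level, control cells thus had Dach1, Eya3, Eya2, Eya1, Six5, Eya4 and Six4, and MLL-AF9 cells had Eya1, Eya3, Dach1, Six4, Six5, Eya2 and Eya4. Without values per library it cannot be said which neighbours in these orders differ beyond their spread.

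**Figure D3:**
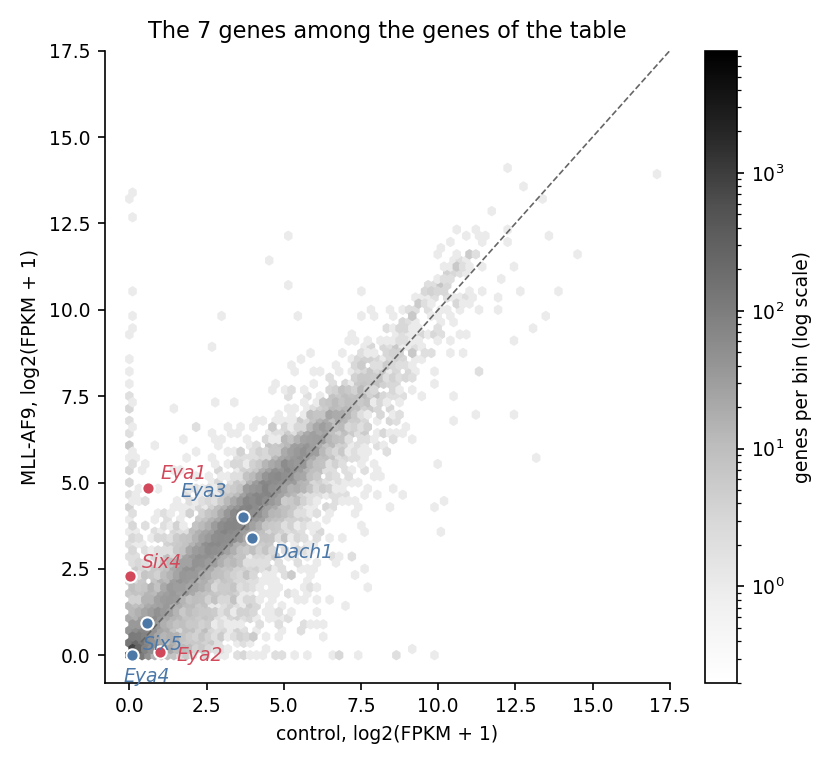
Level of each gene in control (horizontal) and MLL-AF9 cells (vertical) as log2(FPKM + 1), with the density of genes in grey on a log scale and the line of equal values dashed. Red marks members that the authors' deposited table gives a q-value below 0.05, and blue the others. Eya1 and Six4 lie above most genes of similar control level, whereas Eya3 and Dach1 lie near the line.

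The genes whose pair of levels was most like that of Eya1 were found by their distance in log2(FPKM + 1) of the 2 groups, over 10822 other named genes averaging at least 1 FPKM. The nearest was Tctex1d1, a gene of a dynein light chain family, at 27.9 FPKM with MLL-AF9 and 0.851 FPKM in controls, at a distance of 0.27. It was followed by Igf2bp3, an RNA-binding protein of fetal tissues and tumours, at 26.8 and 0.234 FPKM and a distance of 0.32. Next came the homeobox gene Hoxa7, at 22.2 and 0.394 FPKM and a distance of 0.34. For Six4 the nearest were Slc13a5, a citrate transporter gene, at 3.84 and 0 FPKM, Ppp1r14c, a gene for a phosphatase inhibitor, at 3.96 and 0 FPKM, and AI464131, at 3.86 and 0.0243 FPKM. All 3 lay within 0.03 of Six4. Likeness over 2 pooled values says only that the levels are alike.

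Set among 12 genes listed as targets of MLL fusions, Eya1 changed more than 8 of them on the log2(FPKM + 1) scale and Six4 more than 4. Of these 12 genes 11 rose and 0 fell, where 10.3% of expressed rows were called, with a median of 3.47, against the median of 0.29 over all expressed rows. The 5 with the smallest q-values in the authors' deposited table were Hoxa10 (51.3 FPKM with MLL-AF9 and 0.235 FPKM in controls), the Hox cofactor Meis1 (42.6 and 1.68 FPKM), the receptor kinase Flt3 (160 and 5.75 FPKM), Hoxa9 (65.9 and 0.876 FPKM) and the transcription factor Mef2c (88.5 and 10.8 FPKM). The list was drawn up with earlier results of these data known, so its count is no independent evidence. In FPKM, 2 of the 12 were lower than Eya1 in MLL-AF9 cells, Hoxa7 and the Hox cofactor Pbx3, and 2 were lower than Eya1 in control cells, Hoxa7 and Hoxa10. Of the 12 genes 0 were as low as Six4 in control cells.

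Genes that act with the network were taken from 4 lists, of relatives, corepressors, partners and targets. Over the 4 lists 31 genes averaged at least 1 FPKM and 3 of them were called, a share of 9.68% that is near the 10.3% of all expressed rows and is no result about these lists. Of 13 genes for relatives of the Six-type, Dach and paired box families, 12 were matched, and 10 of these were under 1 FPKM in both groups. Six6 and the paired box genes Pax2, Pax4, Pax7 and Pax9 were listed at 0 in both. The 2 above were Pax5 and Pax8. Pax5, which maintains B cell identity, fell from 16.3 to 0.412 FPKM (the authors' deposited table gives q = 5.78e-07). Pax8 was at 2.12 FPKM with MLL-AF9 and 0.868 FPKM in controls, and the authors' deposited table gives it q = 0.471.

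Of 17 corepressors that act with Dach and Six-family proteins, 12 were matched and 11 had a mean of at least 1 FPKM. Of these 11, 1 rose and 0 fell, a share near the 10.3% called among expressed rows. The gene that rose was Tle6, a Groucho family member, at 8.88 FPKM with MLL-AF9 and 1.14 FPKM in controls (the authors' deposited table gives q = 0.00672). Ski and Skil, which share the Dach homology region, did not pass, at 17.0 against 12.3 FPKM and at 7.62 against 9.38 FPKM. The histone deacetylase Hdac3 was at 37.9 and 36.0 FPKM. The list median of 0.19 was below that of all expressed rows and changed sign under quantile normalization, to -0.03, and under median centring, to -0.10.

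Of 14 partners and substrates of Eya proteins, most of them in the response to DNA damage, 13 were matched and all 13 had a mean of at least 1 FPKM. Of these 1 rose and 0 fell, beside the 10.3% called among expressed rows, and 11 of 13 had the higher value in MLL-AF9 cells, beside 68.7% of expressed rows. An unadjusted p-value under 0.05 in the authors' deposited table was found for 5 of the 13, namely Atm, Atr, Mapk8, Smarca4 and Crebbp, all with the higher value in MLL-AF9 cells, beside 19.8% of expressed rows. The gene that rose was the checkpoint kinase Atr, at 10.1 FPKM with MLL-AF9 and 3.15 FPKM in controls (the authors' deposited table gives q = 0.0238). The related kinase Atm was at 6.56 and 2.49 FPKM and did not pass, and the authors' deposited table gives it q = 0.0733. H2afx, which encodes the histone variant that Eya phosphatases act on at DNA breaks, was at 94.2 and 112 FPKM. The list median was 0.64, or 0.35 after median centring.

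Of 11 genes reported elsewhere as targets of Six-family and Eya proteins, 10 were matched and 5 had a mean of at least 1 FPKM. Of these 5, 0 passed the authors' q-value, beside 10.3% of expressed rows. The cyclin gene Ccnd1 alone of the 5 had an unadjusted p-value under 0.05, at 0.0118 in the authors' deposited table, beside 19.8% of expressed rows. Ccnd1 was at 11.7 FPKM with MLL-AF9 and 4.18 FPKM in controls, and the authors' deposited table gives it q = 0.0890. Myc was at 31.5 and 19.9 FPKM without passing. Of the 10 matched genes 7 had a q-value under 1, and with no minimum level 1 of these 7 was called, beside 10.7% of all such rows. This gene, the ion cotransporter gene Slc12a2, fell from 1.25 to 0.176 FPKM (the authors' deposited table gives q = 0.0230).

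**Figure D4:**
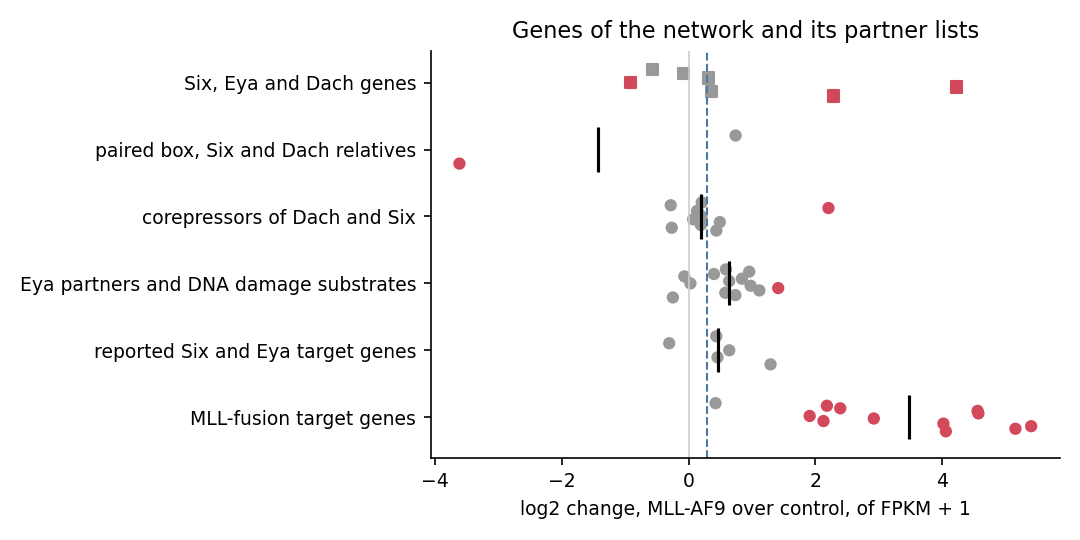
Log2 changes of FPKM + 1, MLL-AF9 over control, for the 7 genes (squares) and for list genes averaging at least 1 FPKM (circles). Red marks genes that the authors' deposited table gives a q-value below 0.05, black bars are list medians, and the dashed line is the median of all expressed rows at 0.29. Eya1 and Six4 lie in the range of the MLL-fusion targets, at 4.23 and 2.28, while most corepressor and partner genes lie between -0.5 and 1.5.

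The genes next to the members were compared to see whether the changes ran along the chromosome. The order of genes was taken from the RefSeq annotation of GRCm38.p6, with 3 protein-coding genes on each side. Of 42 such places 37 gave a value, 24 of these were in the authors' adjustment, and 3 of the 24 were called, 1 as higher and 2 as lower, beside the 10.7% called among all rows of that adjustment. Beside Eya1, Xkr9 and the repressor gene Msc were both listed at 0 in MLL-AF9 and under 0.02 FPKM in control cells, and Lactb2, a place further away, was at 12.0 and 9.11 FPKM, for which the authors' deposited table gives q = 0.784. Beside Six4, Mnat1, a subunit gene of the CDK-activating kinase, was at 11.3 FPKM with MLL-AF9 and 5.20 FPKM in controls, and the authors' deposited table gives it q = 0.299.

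Of the 14 places directly beside a member 10 gave a value, and 5 of these were in the authors' adjustment. Of the 5, 0 were called, beside the 10.7% called among all rows of that adjustment, and 5 genes are too few to show a pattern by distance. The 3 called neighbours stood further away. Dmwd, which is 2 places from Six5, fell 8.21-fold, from 13.3 to 1.62 FPKM (the authors' deposited table gives q = 0.00169). Slc13a3, a dicarboxylate transporter gene 3 places from Eya2, rose 25.5-fold, from 0.152 to 3.87 FPKM (the authors' deposited table gives q = 2.55e-05), opposite to Eya2. Vnn3, a vanin gene 3 places from Eya4, fell from 13.5 to 0.0396 FPKM (the authors' deposited table gives q = 6.2e-12). The library kit does not keep strand, so reads of overlapping genes cannot be told apart.

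Markers of other cell types moved in the same comparison. In bulk RNA, fewer cells of a type and less RNA per cell cannot be told apart. Over all expressed rows, 5.13% were called as higher and 5.2% as lower in MLL-AF9 cells, and the counts below stand beside these shares. Of 8 leukocyte genes checked against the cell type label, 8 averaged at least 1 FPKM, among them Ptprc (CD45) at 142 and 257 FPKM. Of these 8, 0 passed the authors' q-value. An unadjusted p-value under 0.05 in the authors' deposited table was found for 2, Itgam and Cd52, beside 19.8% of expressed rows. Both had the lower value in MLL-AF9 cells. Of the 8 only 1, Laptm5, had the higher value there, beside 68.7% of expressed rows. The sum of the 8 was 3196 FPKM with MLL-AF9 and 5654 FPKM in controls. Of 8 B lymphoid genes 8 fell, and their summed level was 34.1 FPKM with MLL-AF9 and 648 FPKM in controls. Of 8 T and NK genes 8 fell, from a sum of 179 to 24.8 FPKM, and of 10 late granulocyte genes 10 fell. Of 8 erythroid genes 6 fell, with a sum of 17.4 against 234 FPKM. Of the 7 matched monocyte and macrophage genes 4 fell, the complement genes C1qa, C1qb and C1qc and the mannose receptor gene Mrc1. Csf1r (82.4 and 81.3 FPKM), Adgre1 (35.3 and 20.7 FPKM) and Cd14 (25.3 and 13.2 FPKM) had the higher value in MLL-AF9 cells without passing. The sum of the 7 was 148 against 169 FPKM. Of 5 matched megakaryocyte genes 1 rose and 1 fell. The B lymphoid, T and NK, late granulocyte, erythroid and monocyte lists have 0 markers at 0 in either group. The sums of these 5 lists were lower in MLL-AF9 cells, with the smallest difference, a ratio of 0.873, for the monocyte list. The sums of the megakaryocyte list (15.7 against 24.2 FPKM) and of the leukocyte list were lower too. Eya2 and Dach1 also had lower values in MLL-AF9 cells, and the part of these markers in those values was not tested. Pax5, named above among the relatives, is itself 1 of the 8 B lymphoid genes. Of the 8 markers of stem cells and progenitors, 4 rose (Cd34, Sox4, Myb and Mecom) and 1, Ly6a, fell, with a sum of 468 against 221 FPKM. Myb, which is also on the list of MLL-fusion targets, made up 282 and 61.3 FPKM of these sums, and without it they were 187 and 160 FPKM, a ratio of 1.17. The sums without Myb still hold Ly6a, which fell from 95.3 to 22.7 FPKM, beside Cd34, which rose from 19.3 to 78.2 FPKM. The part of these markers in the values of Eya1 and Six4 was not tested.

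Skeletal muscle, where Six4 and Eya1 are also active, was checked by its own markers. Of 13 muscle genes 12 were matched, and 9 of these were under 1 FPKM in both groups. Myod1, Myl1, Myh1 and Myh4 were listed at 0 in both groups, and Myf5 at 0 with MLL-AF9 and 0.0272 FPKM in controls. Myog, a regulator of muscle differentiation, was at 0.399 FPKM with MLL-AF9 and listed at 0 in controls, and the intermediate filament gene Des was at 0.376 FPKM and 0. Both had an unadjusted p-value under 0.05 in the authors' deposited table (0.0341 and 0.0298) and neither passed the q-value. The creatine kinase gene Ckm rose, from 0.147 to 7.30 FPKM (the authors' deposited table gives q = 3.09e-06). Acta1 was at 18.3 FPKM with MLL-AF9 and 31.1 FPKM in controls, and Mylpf at 3.29 and 4.73 FPKM, both without passing. The summed level of the 12 was 30.1 FPKM with MLL-AF9 and 36.3 FPKM in controls. Acta1 made up 18.3 and 31.1 FPKM of these sums, so they mainly follow this gene and do not describe the other muscle genes. Ckm, which went the other way, made up 7.30 and 0.147 FPKM. Of 10 stromal and endothelial genes 6 were under 1 FPKM in both groups, and 3 averaged at least 1 FPKM. Of these 3, 2 rose, Pdgfrb and Pecam1, beside 5.13% of expressed rows. Pdgfrb was at 12.1 FPKM with MLL-AF9 and 0.519 FPKM in controls, and Pecam1, which leukocytes also express, at 105 and 17.1 FPKM. The endothelial genes Kdr (0.00606 and 0.234 FPKM), Tek (0.00714 and 0.183 FPKM) and Cdh5 (0.151 and 0.634 FPKM) had the lower value in MLL-AF9 cells, opposite to Pecam1, with unadjusted p-values of 0.00112, 0.00395 and 0.0464 in the authors' deposited table, and none passed the q-value. The stromal chemokine gene Cxcl12 was at 4.29 and 8.69 FPKM without passing.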

How the data were processed

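PolyA RNA of 3 control and 3 MLL-AF9 libraries was read at 51 bp from single ends of unstranded TruSeq libraries, per the labels' protocols, which speak of duplicates per genotype. The submitters' processing notes list TopHat 1.4.1, Cufflinks 1.3.0, CASAVA 1.8.2, MACS 1.4 and Bowtie 0.17.2 with build mm9, without their roles or settings. The deposited RNA table gives each group 1 pooled value. The file headers name no unit, and the values the authors deposited were read as FPKM from the tools listed. The p-value and q-value of each row are the authors' own, from a test that the file headers do not name. The authors' q-value equals the Benjamini-Hochberg value over the 13502 rows with a q-value under 1, within 1% in all of them.

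A test of limma on single libraries had been planned and could not be made from pooled values, so no test was computed anew. The table was processed whole and 1 row, S100a9, was left out of the expressed rows as a failed estimate. Named genes are the 7 members, called genes of each list (up to 5 by q-value), the 3 most similar genes of each called member above the minimum, called neighbours and other list genes chosen after their values were seen. The members and lists were chosen with earlier results of these data known. Some genes that the lists or the neighbour rule take are not reported here, and list sizes are given without them. Symbols were used to match list genes, and 2 were found under an older symbol. Steps were tested on simulated data. Alternatives were other pseudocounts, levels, thresholds and scalings. Python 3.11.15, numpy 2.4.6, pandas 2.3.3, scipy 1.17.1 and matplotlib 3.10.9 were used.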

Additional observations from a re-analysis of the deposited data

How the results depend on the processing

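Under 3 other scalings, all 7 members kept the sign of their log2 change. Eya3 and Six5 came close to 0 under median centring, at 0.02 and 0.06. The 2 other pseudocounts changed the size of the changes but cannot alter their sign, so they are no check of direction. These alternatives leave the authors' q-values untouched. The count of called members was 2 with a minimum mean of 1 FPKM, 3 without a minimum, and 1 with a mean of at least 5 FPKM, which Six4 does not reach. It did not change with a q-value under 0.01 or 0.1. For the partner lists, the corepressor median turned negative with quantile normalization (-0.033) and with median centring (-0.10), the Eya partner median was 0.35 under median centring, and the target gene median was 0.25 with no minimum level and 0.16 under median centring, from 0.46. With no minimum level 1 target gene was called in place of 0. The paired box list median, over 2 genes, was -1.44, and became 0 with no minimum level and -3.62 with a mean of at least 5 FPKM, where 1 gene is left. No paired analysis was possible because the table has 1 pooled value per group, and for the same reason no library could be left out. The planned count of 5hmC regions at the members was not run, for want of gene positions in mm9. Depth is unknown, so what it limits for low genes such as Six4 in control cells cannot be given.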
